A study of Homo sapiens with 2 samples.

Results

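The enzymes that write and remove acetyl and methyl groups on histones, together with the DNA methyltransferases, were compared between TE-1 cells given an empty vector and TE-1 cells given a vector carrying PAX2. Members were taken by gene name: the histone deacetylases (HDAC), sirtuins (SIRT), MLL, SETD, SMYD, EZH, SUV and EHMT lysine methyltransferases, JMJD and JARID demethylases, arginine methyltransferases (PRMT), MYST acetyltransferases and DNA methyltransferases (DNMT). This rule found 76 of the 23619 genes on the array and 170 of its 45033 features, a feature being the probe set designed against one transcript. TE-1 is an established human oesophageal squamous carcinoma line. Total RNA was taken 24 h after transfection with pcDNA3.1 in the control group, or with pcDNA3.1-PAX2 in the other group. Each group had 1 single-colour Cy3 array, so no SD between samples and no p-value can be given for any difference, and precision is limited by having so few arrays. Both cultures were transfected, and a culture without any vector was not analysed here.

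Chromatin enzymes act by changing the chemistry of histone tails and of DNA. Acetyl groups placed by acetyltransferases mark open chromatin and are taken off by deacetylases, while methyl groups can mark either active or silent genes, depending on the residue that carries them. PAX2, a paired-domain transcription factor of the developing kidney, binds the adaptor PAXIP1 (PTIP), through which an MLL-family H3K4 methyltransferase complex can be brought to DNA, as worked out in human and mouse cells.

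The promoters below belong to members that the results turn on: KMT2D and KDM4C had the largest gene differences each way among the measured members, EHMT2 is a member whose features disagreed, and SMYD1 was dark on both arrays. Each runs from 250 bases before to 50 bases after the gene's start, is taken from RefSeq on GRCh38.p14, and is written 5′ to 3′ on the gene's strand with every CG dinucleotide in capitals. KMT2D, at chr12:49060745-49061044 on the minus strand, holds 27 CG dinucleotides. KDM4C, at chr9:6757723-6758022 on the plus strand, holds 29. EHMT2, at chr6:31897649-31897948 on the minus strand, holds 25. SMYD1, at chr2:88067575-88067874 on the plus strand, holds 4.
KMT2D: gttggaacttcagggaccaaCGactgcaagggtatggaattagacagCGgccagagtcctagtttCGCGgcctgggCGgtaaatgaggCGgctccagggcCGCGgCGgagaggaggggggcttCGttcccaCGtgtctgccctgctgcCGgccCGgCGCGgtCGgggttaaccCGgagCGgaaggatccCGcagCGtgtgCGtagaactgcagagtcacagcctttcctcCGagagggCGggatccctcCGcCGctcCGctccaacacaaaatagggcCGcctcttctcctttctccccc
KDM4C: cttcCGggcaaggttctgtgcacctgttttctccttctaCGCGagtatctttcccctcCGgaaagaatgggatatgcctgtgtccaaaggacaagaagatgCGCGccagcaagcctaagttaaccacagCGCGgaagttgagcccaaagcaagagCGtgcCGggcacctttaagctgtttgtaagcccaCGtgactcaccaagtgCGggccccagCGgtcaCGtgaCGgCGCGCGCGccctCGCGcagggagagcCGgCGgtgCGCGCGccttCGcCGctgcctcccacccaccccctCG
EHMT2: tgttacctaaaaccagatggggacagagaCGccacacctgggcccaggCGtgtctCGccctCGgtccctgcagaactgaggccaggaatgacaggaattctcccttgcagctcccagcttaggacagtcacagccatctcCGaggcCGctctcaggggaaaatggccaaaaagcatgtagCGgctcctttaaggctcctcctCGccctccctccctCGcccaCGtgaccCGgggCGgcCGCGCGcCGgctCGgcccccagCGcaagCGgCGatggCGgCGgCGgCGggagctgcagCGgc
SMYD1: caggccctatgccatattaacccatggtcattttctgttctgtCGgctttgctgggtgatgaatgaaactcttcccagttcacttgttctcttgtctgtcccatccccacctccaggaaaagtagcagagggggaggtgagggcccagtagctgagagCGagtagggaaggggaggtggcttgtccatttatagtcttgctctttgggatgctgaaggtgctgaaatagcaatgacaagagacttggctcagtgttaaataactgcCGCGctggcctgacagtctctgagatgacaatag

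Among the members, 70 of 76 had at least 1 such window, 104 windows in all. The median member window held 29 CG dinucleotides and 67.0% G or C, against 14 and 58.7% over the 35116 windows of all genes in the table. Windows of members that were bright enough to be measured (56 genes, 74 windows) had a median of 30 and ran from 2 to 52, and those of unmeasured members (14 genes, 30 windows) had a median of 19.5 and ran from 0 to 56. The range of the measured members lay within that of the unmeasured ones. A gene with several windows counts several times in these medians. The letters GTCACGC, a core of the sequence that the PAX2 paired domain recognises, were searched on both strands with overlapping matches counted. They stood in 886 of all 35116 windows, or 2.52%, and in 0 of the 104 member windows. This describes the letters of these windows and not binding. No window of SETD1B, HDAC5, KAT6A, SIRT7, DNMT3L or KAT8 was used here.

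The PAX2 feature itself (RefSeq NM_000278, HG18 chromosome 10, 102495321 to 102579688) did not differ between the arrays. It read 22.2 in the control and 22.1 with the PAX2 vector, in intensity units, close to the 20.6 and 19.3 of the 5000 random-sequence probes. The labels of the arrays were therefore not checked by the transfected gene, and each array is named below only by its label. The arrays were alike in brightness, with feature medians of 205 in the control and 210 with the PAX2 vector. A gene was called measured where its mean log2 intensity was at or above the feature median of either array. A second mark, the silent range, ends at the 95th percentile of 375 olfactory receptor genes, a family most epithelial cells leave off: an intensity of 134 in the control and 142 with the PAX2 vector. This mark was chosen after the data were seen. Of the squamous markers, 5 of 9 were measured (KRT5, KRT14, KRT17, SFN and PERP), while the gene means of TP63, DSG3, PKP1 and KRT6A lay in the silent range on both arrays. The epithelial markers KRT8 and KRT18 were measured and CDH1 and EPCAM were not. None of 5 leukocyte and 3 endothelial markers was measured, and of 5 fibroblast markers COL1A1 and DCN were. KRT5 stood at 593 and 974, a log2 difference of 0.72. The other measured squamous markers differed less, KRT14, KRT17 and SFN by 0.17, 0.32 and 0.31 and PERP by -0.22. The part of such differences in the results below was not tested.

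The measured chromatin enzymes differed between the arrays about as much as measured genes in general, in a comparison not matched for brightness. Of the 76 members, 62 were measured, or 81.6%, against 49.3% of all genes. Of these 62 members 57, or 91.9%, lay within 1.5-fold of their control value, against 92.3% of all measured genes. Differences are given throughout as log2 intensity on the PAX2 vector array minus log2 intensity on the control array, averaged over the features of a gene. Over the 62 measured members these differences had a median of 0.03 and quartiles of -0.16 and 0.25. The median of all 11636 measured genes was 0.02. Of the measured members 34 lay above 0 and 28 below, and over all measured genes 53.5% lay above 0. The SD of the differences was 0.38 for the members and 0.38 for all measured genes.

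**Figure D1:**
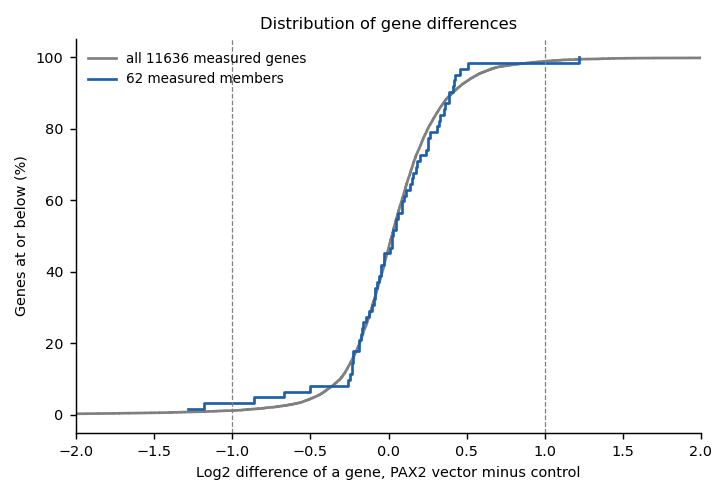
Cumulative share of genes (vertical axis, %) at or below each log2 difference, PAX2 vector array minus control array (horizontal axis, drawn from -2 to 2), for the 62 measured members in blue and all 11636 measured genes in grey. The curves run close together, with medians of 0.03 and 0.02.

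The gene mean of KMT2D was 2-fold or more brighter on the PAX2 vector array, and the gene means of KDM4C and KDM5B were read as 2-fold or more dimmer. Both lower readings come from features that lay in the silent range on the PAX2 vector array, and no member feature above that range on both arrays was 2-fold lower. By gene means, 1 of 62 measured members was higher and 2 were lower. Over all measured genes 132, or 1.13%, were at least 2-fold higher and 135, or 1.16%, at least 2-fold lower, beside 1.61% and 3.23% of the measured members, where each percentage stands for 1 or 2 genes. At 1.5-fold, 1 member was higher, against 4.5% of all measured genes, and 4 were lower, against 3.21%. The 4 lower members were KDM4C, KDM5B, DNMT3L and SUV39H2. All 4 counted as measured through the control array alone and lay below the median of the PAX2 vector array, so that passing the brightness mark and being lower were tied. Of the 57 members that reached the median on both arrays, 1, KMT2D, differed by 1.5-fold or more. In the plot of cumulative shares the members' line runs beside that of all genes, and single genes make the steps at its ends.

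KMT2D encodes the MLL-family methyltransferase that places monomethyl marks on H3K4 at enhancers, and it belongs to the complex that PAXIP1 joins. The files name it MLL2, and its NCBI gene identifier fixes it as KMT2D. Its 1 feature (NM_003482, HG18 chromosome 12, 47701829 to 47735374) read 1002 in the control and 2335 with the PAX2 vector, a log2 difference of 1.22. Among features of similar brightness the central 95% of differences ran from -0.51 to 0.73, and KMT2D lay outside that span. By construction 5% of features do, and a SETD5 feature of similar brightness differed by 1.27. No second feature on the array reads this gene, and the difference has no check within the array.

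The other H3K4 methyltransferases and their relatives moved less. KMT2E, a divergent MLL-family protein, had features at 392 and 568 and at 19188 and 23791 in the control and with the PAX2 vector, differences of 0.54 and 0.31. Both of its features were brighter on the PAX2 vector array. SETD7, which monomethylates H3K4 and many other proteins, stood at 887 and 1158, a difference of 0.38. KMT2A, the MLL protein rearranged in leukaemia, was at 426 and 483, a difference of 0.18. SETD1B and SETD1A, the catalytic subunits of the SET1 complexes that place most H3K4 trimethylation, differed by 0.11 and 0.02, and SETD1A read 6106 and 6212. KMT2B, the close relative of KMT2A, was at 2029 and 1806, a difference of -0.17. KMT2C, the sister enzyme of KMT2D at enhancers, was not measured and was read at 137 and 196, a difference of 0.52. Of the 7 measured H3K4 methyltransferases and relatives 6 lay above 0, beside 53.5% of all measured genes. Their median was 0.18.

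H3K9 methyltransferases, which write the mark of silent chromatin, did not move as a block. EHMT1 and EHMT2 (GLP and G9a), partners that dimethylate H3K9, had gene differences of 0.46 and 0.51. The 6 features of EHMT1 ran from -0.01 to 0.86, and 5 of 6 were above 0. The highest was not measured, and its control value lay in the silent range, which bounds it at 1.25-fold higher or more. The 2 features of EHMT2 disagreed: one stood at 3107 and 3012, a difference of -0.05, and the other (AK056936, HG18 chromosome 6, 31971156 to 31973443) at 237 and 497, a difference of 1.07. The dimmer feature alone gives EHMT2 its place among the brighter members, and its promoter is shown above for that reason. SETDB1, which trimethylates H3K9 with the corepressor TRIM28, likewise had 1 feature at 1870 and 2947, a difference of 0.66, and 1 at 1539 and 1506, a difference of -0.03. SUV39H1, a writer of trimethyl H3K9 at pericentric heterochromatin, had 1 feature at 7040 and 5941, a difference of -0.24. SUV39H2, its paralogue, had a gene difference of -0.67 from features that pointed opposite ways: 323 and 346, a difference of 0.10, and 164 and 60.5, a difference of -1.44. The lower feature ended in the silent range, where its fold is bounded at 1.15 or more. SETDB2 was in the silent range on both arrays. The 5 measured H3K9 enzymes had a median of 0.31, with 3 above 0 and 2 below.

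The Polycomb enzymes of H3K27 pointed in opposite directions. EZH2, the catalytic subunit of PRC2 that is abundant in dividing cells, stood at 2525 in the control and 2151 with the PAX2 vector, a difference of -0.23. EZH1, its paralogue in resting cells, stood at 558 and 700, a difference of 0.33. Each has 1 feature, and neither reached 1.5-fold. SETD2, the writer of trimethyl H3K36, had features at 0.14 and -0.44. The H4K20 enzymes lay above 0: KMT5A (SETD8), which places the first methyl group, at 0.10, and KMT5B and KMT5C (SUV420H1 and SUV420H2), which add further ones, at 0.25 and 0.39. The 4 features of KMT5B ran from -0.31 to 0.78 and those of KMT5C were 0.42 and 0.36. The control value of the highest KMT5B feature lay in the silent range, which bounds it at 1.68-fold higher or more.

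**Figure D2:**
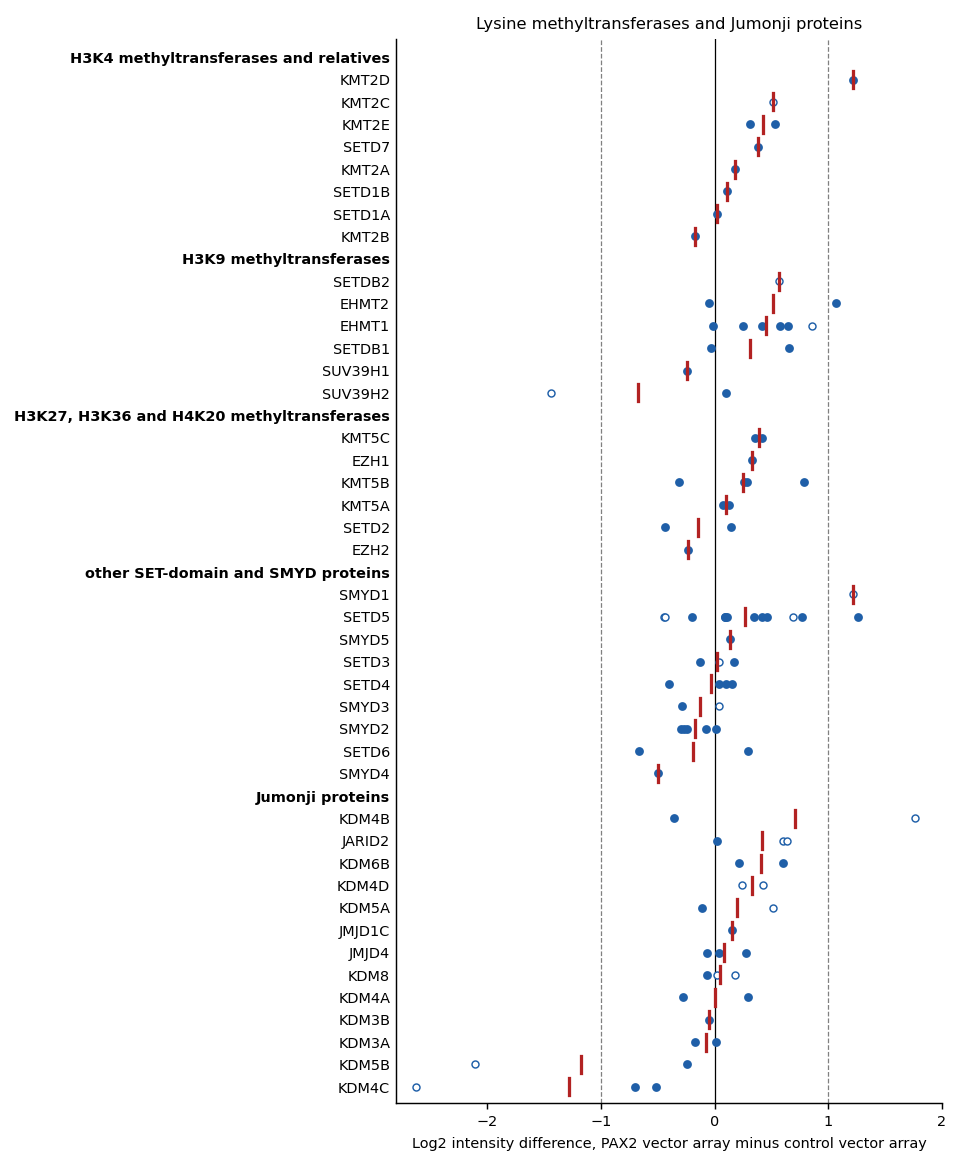
Log2 difference, PAX2 vector array minus control array (horizontal axis), for every lysine methyltransferase and Jumonji gene (rows, grouped by class). Each point is 1 feature, filled where that feature was measured and open where it was not, the red bar is the gene's mean, and dashed lines mark 2-fold; KMT2D stands right of the line and KDM4C and KDM5B left of it.

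The remaining SET-domain and SMYD proteins centred near 0, with a median of -0.08 over 8 measured genes of 9. SMYD4 had the largest difference among the measured ones, with 719 in the control and 508 with the PAX2 vector, -0.50. SMYD2, which methylates p53 and other proteins, had 5 features from -0.29 to 0.01 that read 924 to 2298 in the control and 780 to 1874 with the PAX2 vector, and its gene difference was -0.18. SMYD3, SMYD5, SETD3 and SETD4 lay between -0.12 and 0.14. SETD3 is the methyltransferase of actin histidine, although its name places it with the histone enzymes. SETD6, which methylates the RelA subunit of NF-kappaB, had features at 0.29 and -0.67. SETD5 had 12 features, the highest number of any member, with differences from -0.44 to 1.27 and a gene difference of 0.26. The feature at the top of that span (XM_931390) read 547 and 1314, while the brightest (BC020956) read 4795 and 4191, a difference of -0.19. SMYD1, a muscle protein, read 10.3 and 24.0, a difference of 1.22 that is as large as that of KMT2D and lies wholly in the silent range. That is why its promoter is set beside the others. It holds few CG dinucleotides, and the SMYD1 feature was at the level of the random probes. Windows of unmeasured members ran from 0 to 56 CG dinucleotides, so this window does not stand for them all.

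The Jumonji demethylases held both of the members whose gene means were read as 2-fold lower, in each case through a feature that lay in the silent range with the PAX2 vector. KDM4C, which removes methyl groups from H3K9 and H3K36 and is also named GASC1 after its amplification in squamous carcinoma lines, was dimmer on the PAX2 vector array in all 3 features. These read 332 and 205 (BC104859), 253 and 177 (NM_015061, HG18 chromosome 9, 6748082 to 7165647) and 148 and 23.9 (AB018323), with differences of -0.70, -0.52 and -2.63. The mean of the 3 was -1.28. Only the dimmest feature passed 2-fold, and it ended in the silent range, which bounds it at 1.04-fold lower or more. The other pair, above the range on both arrays, stood at 1.62-fold and 1.43-fold lower. KDM5B, which removes methyl groups from H3K4, read 1382 and 1166 in 1 feature, a difference of -0.25, and 42.1 and 9.73 in the other, a difference of -2.11. The second feature lay in the silent range on both arrays and, with the PAX2 vector, below the random probes. The gene's mean of -1.18 passed 2-fold through it. Such a feature bounds no fold, and the readable one was 1.19-fold lower.

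The other Jumonji proteins were closer to 0. KDM6B (JMJD3), which removes methyl groups from H3K27, had features at 0.21 and 0.61 and a gene difference of 0.41. JARID2, a PRC2 partner without demethylase activity, had a gene difference of 0.42. Its bright feature at 1279 and 1298 differed by 0.02 and 2 dim ones by 0.60 and 0.64. The control values of both dim features lay in the silent range. KDM5A, the paralogue of KDM5B, lay at 0.20, with features at 0.51 and -0.11. KDM3A and KDM3B, demethylases of H3K9, lay at -0.08 and -0.05, KDM3B reading 2053 and 1988, and JMJD1C and JMJD4 at 0.15 and 0.08. KDM4A, the closest measured relative of KDM4C, lay at 0.01, from features at 0.29 and -0.28. KDM4B, KDM4D and KDM8 were not measured by their gene means, although 1 feature of KDM8 read 252 and 241, a difference of -0.06. The features of KDM4B split widely: 343 and 269, a difference of -0.35, and 29.2 and 99.5, a difference of 1.77 inside the silent range. The 10 measured Jumonji genes had a median of 0.05, with 6 above 0 and 4 below.

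**Figure D3:**
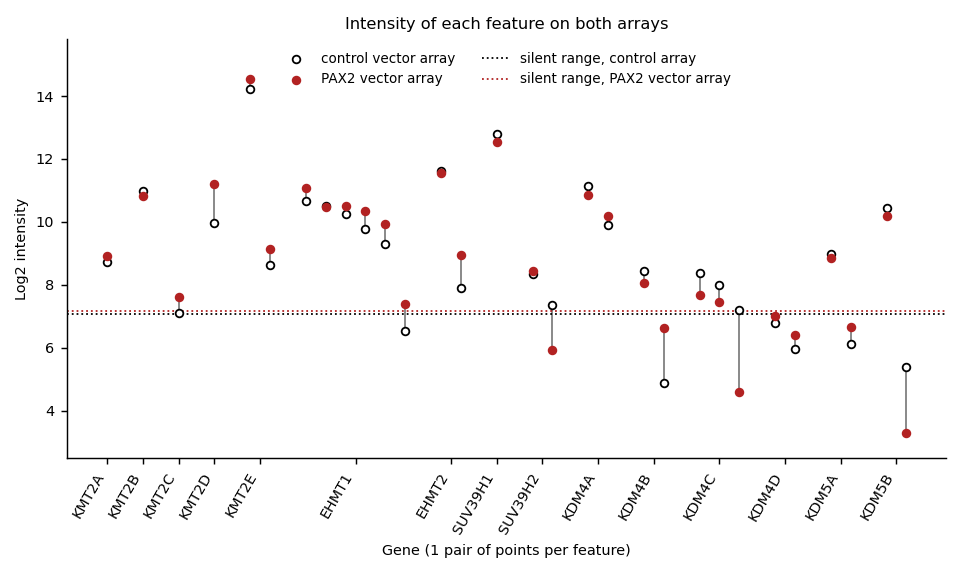
Log2 intensity (vertical axis) of each feature on the control array (open) and the PAX2 vector array (red), with 1 pair of points per feature, for the MLL, EHMT, SUV39H, KDM4 and KDM5 genes. Dotted lines mark the upper end of the silent range on each array; several of the widest gaps between paired points reach or lie under these lines.

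The plot of paired intensities sets these families side by side. KMT2D is a wide pair well above the silent range. In KDM4C the pairs of 2 features stay above the dotted lines and the third crosses them, and in KDM5B the wide pair lies under them altogether.

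The zinc-dependent histone deacetylases lay within 1.5-fold in 8 of 8 measured genes of 11, where 92.3% of all measured genes did, with a median of -0.02. The class I enzymes HDAC1, HDAC2 and HDAC3, the catalytic subunits of the nuclear corepressor complexes, were somewhat dimmer on the PAX2 vector array. HDAC1 read 6015 and 5135, a difference of -0.23, HDAC2 read 5477 and 4801, a difference of -0.19, and HDAC3 read 4498 and 4079 in 1 feature and 14577 and 13857 in the other, differences of -0.14 and -0.07. HDAC8, the class I enzyme that deacetylates cohesin, lay at 0.09. The class IIa proteins HDAC5 and HDAC7, which shuttle between nucleus and cytoplasm, were brighter: HDAC5 had 3 features from 0.32 to 0.41, and HDAC7 read 4509 and 5880 in 1 feature and 7718 and 8432 in the other. All 5 features of this pair of genes lay above 0. HDAC6, the tubulin deacetylase, lay at 0.06 and HDAC10, a polyamine deacetylase, at -0.26. HDAC4, HDAC9 and HDAC11 were not measured by their gene means, although 1 feature of HDAC4 read 246 and 237, a difference of -0.05. HDAC9, with 6 features all in the silent range, had differences from -0.33 to 1.11, and why they differed was not tested.

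Of the 7 sirtuins, the NAD-dependent deacylases, 5 were measured, with a median of -0.05. SIRT6, a deacetylase bound to chromatin, was the one furthest from 0, at 0.33, and its 3 features of 0.37, 0.34 and 0.26 lay on the same side. SIRT1, the nuclear enzyme that acts on p53, lay at 0.04, SIRT2 in the cytoplasm at -0.05 (its brightest feature read 2044 and 2190), SIRT3 in mitochondria at -0.16 and SIRT7 in the nucleolus at -0.09. SIRT4 and SIRT5, both mitochondrial, were not measured by their gene means. Both features of SIRT4 lay in the silent range, while SIRT5 had 1 feature above it, at 298 and 266, a difference of -0.16, and 1 within it. All 4 MYST acetyltransferases were measured, with a median of -0.01. KAT6A (MYST3) and KAT6B (MYST4), which act on H3, pointed opposite ways, at -0.23 and 0.16. KAT7 (MYST2), which acts with origins of replication, read 2641 and 2533, a difference of -0.06, and KAT8 (MYST1), the H4K16 acetyltransferase, at 0.03.

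The arginine methyltransferases lay within 1.5-fold in 6 of 6 measured genes of 7, again beside 92.3% of all measured genes, with a median of -0.06. PRMT2, a coactivator of nuclear receptors, had 5 features from -0.12 to 0.03. PRMT5, the main symmetric dimethyltransferase, read 5074 and 4787, a difference of -0.08. PRMT1, the main asymmetric dimethyltransferase, read 12642 and 10283, 17261 and 18523, and 8043 and 10142 in its 3 features, which ran from -0.30 to 0.33 and averaged 0.05. PRMT3 lay at -0.09, and PRMT6, which methylates H3R2, at -0.23 with features of -0.25 and -0.22. PRMT7, a monomethyltransferase, read 3015 and 3873, a difference of 0.36. PRMT8, a membrane-bound enzyme of neurons, was in the silent range.

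Of the 5 DNA methyltransferase genes 3 were measured, 2 above 0 and 1 below. DNMT1, which copies methylation after replication, was slightly brighter in all 3 features, with 4248 and 4730, 3207 and 3392, and 3740 and 4585. Its gene difference was 0.18. DNMT3B, an enzyme of new methylation, had features at 0.53 and -0.06. DNMT3L, the catalytically inactive partner of the new-methylation enzymes, read 338 and 186 in its 1 feature (HG18 chromosome 21, 44490650 to 44506527), a difference of -0.86 or 1.82-fold lower. DNMT3A was not measured by its gene mean, with features at 251 and 374 and at 22.0 and 28.5. TRDMT1, named DNMT2 in the files and a methyltransferase of transfer RNA, was not measured and had features from -1.99 to 0.38. The feature at -1.99 read 152 in the control, just above the silent range, and 38.2 with the PAX2 vector, which bounds it at 1.07-fold lower or more.

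**Figure D4:**
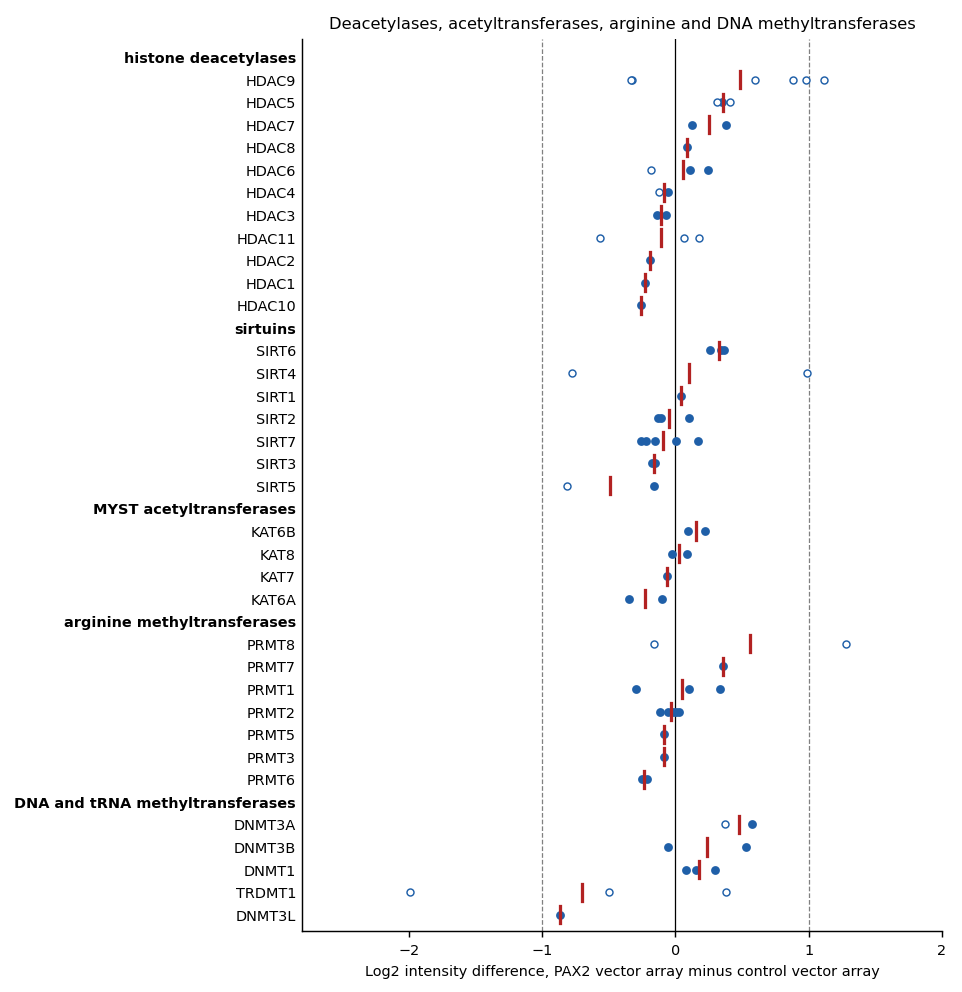
Log2 difference, PAX2 vector array minus control array (horizontal axis), for every deacetylase, sirtuin, MYST, arginine methyltransferase and DNA or tRNA methyltransferase gene (rows, grouped by class). Points are features, filled where measured and open where not, red bars are gene means and dashed lines mark 2-fold; the points beyond the dashed lines are open.

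The plot of these classes has no filled point past 2-fold on either side, and the open points reach furthest in TRDMT1, PRMT8 and HDAC9.

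Since each condition had 1 array, the features of a gene were the closest thing to a repeat reading. They share the RNA and the array, and they were designed against different transcripts of the gene. Of the 76 members 26 had 1 feature and 50 had several. In 20 of the 50 all features lay on the same side of 0, 12 above and 8 below. This count takes in dim features, and its share over all genes was not computed. The shares that follow are of measured features only. Among genes with 2 measured features, 12 of 21 members, or 57.1%, had both on the same side, against 58.9% of all such genes. With 3 measured features it was 2 of 5 members, or 40.0%, against 37.9%. Of the 7 members with 4 or more measured features none had all on 1 side, against 23.8% of all genes with as many. These are few genes, they were not matched for number of features, and the difference was not tested. The SD of differences between measured features of 1 gene was 0.29 for 33 member genes and 0.31 for all genes. These SDs are nearly as large as the spread of 0.38 between genes, which is of means over all features of a gene. A difference of about 0.3 in a single measured feature is therefore no larger than the disagreement between readings of a gene on the same pair of arrays. That disagreement is pooled over features of all measured brightness, and a mean over several features is not the same quantity.

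Among the 128 measured member features, 3 were at least 2-fold higher (KMT2D, EHMT2 and SETD5) and none was at least 2-fold lower, against 1.74% and 1.48% of the 23459 measured features. Without the brightness mark 7 of the 170 member features were higher and 4 lower, against 4.87% and 5.04% of all 45033 features. Of these 11 features, 9 belonged to a gene with another feature, and in 0 of the 9 did another feature pass 2-fold in the same direction. The same share over all genes was not computed, so this count sets the members apart from no other genes. In KDM4C and KDM5B the other features shared the sign. With the features of the array put into 10 bins of rising brightness, the SD of the differences was 0.93 in bin 3 and 0.25 in bin 10. Of the 170 member features 9, or 5.29%, lay outside the central 95% of their own bin, where 5% do by construction.

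**Figure D5:**
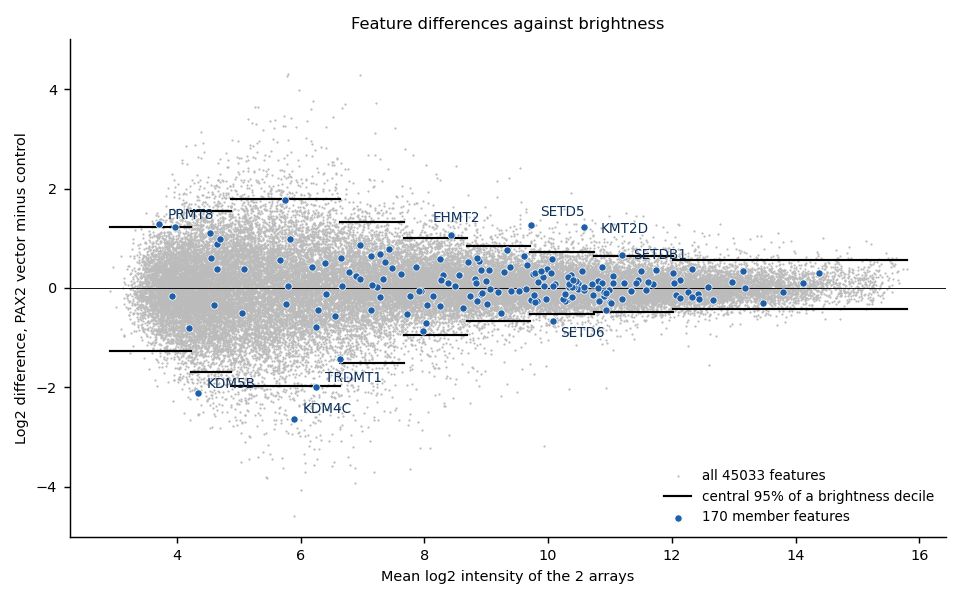
Log2 difference of each feature, PAX2 vector array minus control array (vertical axis), against its mean log2 intensity over both arrays (horizontal axis), for all 45033 features in grey and the 170 member features in blue. Black lines bound the central 95% of each of 10 brightness bins; 9 member features lie outside them.

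In the plot against brightness the member features above the lines belong to KMT2D, EHMT2, SETD5, SETDB1 and PRMT8, and those below to KDM4C, KDM5B, SETD6 and TRDMT1. The lines narrow to the right. SMYD1, with a difference as large as that of KMT2D, lies barely inside, at 1.222 against an upper line of 1.224. PRMT8 in the same dim bin, at 1.284, lies outside. KMT2D, at 1.221, lies further from its own upper line of 0.73.

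Genes that work beside these enzymes, as complex subunits, targeting proteins or other chromatin enzymes, were put into 6 lists. Of these 89 genes 81 were measured. None was 2-fold higher or lower, against 1.13% and 1.16% of all measured genes, 2 were at least 1.5-fold higher, against 4.5%, and 1 was at least 1.5-fold lower, against 3.21%. The difference from all genes was not tested. Their median difference was 0.05. In the deacetylase corepressor list 20 of 21 genes were measured and 16 lay above 0, beside 53.5% of all measured genes. The median of this list was 0.15, beside 0.02 for all measured genes, and neither difference was tested. SAP30 and ING2, both subunits of the SIN3 complex, read 133 and 229 and 198 and 325, differences of 0.78 and 0.72. The control value of SAP30 lay in the silent range, which bounds its fold at 1.70 or more. The scaffolds SIN3B and SIN3A lay at 0.40 and 0.05.

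Among 15 measured Polycomb and H3K9 partners the median was 0.01. BMI1, the PRC1 subunit that represses the INK4A locus, read 227 and 115, a difference of -0.98. Its PAX2 vector value lay in the silent range, and the fold was at least 1.60-fold lower. EED and SUZ12, the core PRC2 subunits, lay at -0.35 and 0.00, and PHF1, an accessory PRC2 subunit, at 0.43. TRIM28, the partner of SETDB1, lay at -0.15. Among 12 measured COMPASS entries, in which WDR82 stands under 2 gene identifiers, 6 lay above 0 and 6 below, with a median of -0.02. PAXIP1, the adaptor between PAX2 and the KMT2D complex, lay at 0.07, its partner PAGR1 at -0.18, and the shared core subunits WDR5, RBBP5, ASH2L and DPY30 at 0.30, 0.38, -0.04 and -0.21. None of these passed 1.5-fold, unlike KMT2D.

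The other acetyltransferases, 13 measured of 14, had a median of 0.05. CREBBP and EP300, the paired coactivators that acetylate H3K27, lay at 0.57 and 0.28, and MEAF6, a subunit of MYST complexes, at -0.46. Of 13 measured lysine methyltransferases and demethylases that the naming rule does not take, 9 lay above 0, beside 53.5% of all measured genes. The median of the 13 was 0.17, and the H3K36 demethylase KDM2A was highest at 0.47. Against 53.5% of all measured genes, 2 of 8 measured DNA methylation partners lay above 0 and 6 below. Their median was -0.15. They ran from -0.38 for the methyl-DNA reader ZBTB33 (Kaiso) to 0.36 for the repair glycosylase TDG, and UHRF1, which brings DNMT1 to replicated DNA, lay at -0.04. The gene means of TET1, TET2 and TET3, which oxidise methylcytosine, lay in the silent range on both arrays.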

How the data were processed

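Total RNA of 2 TE-1 cultures was read on 1 single-colour array each. The authors deposited 1 linear intensity for every feature and array. Per the submitters' processing notes these were summarised by RMA, whose version and between-array step are not stated in labels or headers. Per the file headers, a deposited number of probes stands beside each intensity, and it was 3 for 45031 of 45033 features. Coordinates are those of the HG18 design.

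Intensities were taken to log2 with no further normalization and averaged over the features of each NCBI gene identifier with Python 3.11.15, pandas 2.3.3 and numpy 2.4.6. Plots used matplotlib 3.10.9. Of 42947 features with a gene identifier, 38916 matched a current RefSeq symbol and 4031 kept the file's name. All 76 members matched, 24 of them under another name in the files. The counting was tested on simulated data with less noise than these arrays and with changes placed in bright genes only. That test covers the arithmetic of the counts and not their reliability for dim members. With 1 array a group no test was run, so folds of 1.5 and 2 serve as descriptive marks. Where a feature fell in the silent range on 1 array, its fold was bounded from the end of that range.

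The members, partner lists, markers and alternatives were chosen with earlier results of these data known. Every member could be named, with full values for those at least 1.5-fold different, the brightest of each class and those whose features disagreed. Alternatives were the series' own value table, centring, quantile normalization, a brightness-dependent lowess correction (statsmodels 0.14.6), the brightest feature per gene, other filters and thresholds, and an added offset of 64. The deposited standard errors were not used because their meaning is not stated.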

Additional observations from a re-analysis of the deposited data

How the results depend on the processing

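The counts of members past 2-fold were small, and the lower count rested on dim features. The main values were 1 higher and 2 lower. The lower count was 0 when each gene was read from its brightest feature, with a filter at the 75th percentile, with an offset of 64, and at a 3-fold threshold. It was also 0 when members had to lie above the silent range on both arrays, or reach the median on both arrays, a pair of alternatives chosen after seeing the data. It was 4 at a 1.5-fold threshold. The higher count was 0 at 3-fold and 2 with no filter, which admits SMYD1. The median member difference turned from 0.03 to -0.0064 when each array was centred on its own median. For SUV39H2 the brightest feature gave 0.10 in place of -0.67, for KDM4C it gave -0.70, and for KDM5B -0.25. With the offset of 64 KDM4C lay at -0.74 and KDM5B at -0.38. Both constructions give less weight to dim features. KMT2D lay between 1.17 and 1.22 under its 6 alternatives. Of 30 recomputed values of single genes, 25 moved by less than the spread between features. Part of this was fixed in advance, since the series' own value table held the same values. Nor could taking the brightest feature change KMT2D or DNMT3L, which have 1 feature each. No replicate could be left out, since each group has 1 array. No paired analysis was possible because a single array stands for each condition. Features near the random probes limit what can be said of dim members.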
